A study of Mus musculus with 16 samples.

Results

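The comparison described here is the loss of NRF2 in mouse bone marrow that was not exposed to 5-fluorouracil (5-FU). It takes the 8 libraries without 5-FU out of 16 in the series and sets the 4 knockout (KO) libraries against the 4 wild-type (WT) libraries. KO PBS, KO BMX-001, WT PBS and WT BMX-001 contributed 2 libraries each. KO is CB57BL/6+Nrf2-/- as the labels spell it, bred from Nrf2+/- parents, and per the labels these mice carry a mutant, inactive form of the gene. WT is C57BL/6, males of 8 to 10 weeks when obtained. BMX-001, described in the labels as a radioprotector, was given at 0.5 mg/kg 24 h ahead of the 5-FU time point and then every 3 days, and PBS was its control. Marrow was taken on day 10, and RNA came from unsorted cells. The age and sex of the KO mice are not stated, and KO mice were bred in the study while WT mice were bought, so genotype and origin cannot be told apart. Marrow was isolated in duplicate, with no word on whether the duplicates are separate mice, so the p-values cover the spread of these samples alone, and that may be technical.

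NRF2, encoded by Nfe2l2, is a transcription factor that KEAP1 holds in the cytoplasm and passes on for degradation. Oxidants and electrophiles modify KEAP1, NRF2 then accumulates, pairs with small MAF proteins in the nucleus and binds antioxidant response elements (AREs). Its known targets include quinone reductases, the thioredoxin and glutathione systems, enzymes that supply NADPH, ferritins and heme oxygenase, and BACH1 competes for the same elements. Bone marrow holds erythroid, granulocytic, monocytic and B lineage precursors next to stem cells and stroma, and a bulk library sums them all.

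The core of an ARE is written TGACNNNGC on one strand and GCNNNGTCA on the other. The promoter stretches of the called NRF2 targets that hold these letters are shown because NRF2 is known to bind such elements. They come from RefSeq (GRCm38.p6), with the matching bases in capitals. Pir and Txnrd1 are given as the 250 bases before the annotated start at chrX:164269181-164269430 and chr10:82858956-82859205, both on the plus strand. Srxn1 is given as a site of 29 bases at chr2:152105542-152105570, plus strand.
Pir: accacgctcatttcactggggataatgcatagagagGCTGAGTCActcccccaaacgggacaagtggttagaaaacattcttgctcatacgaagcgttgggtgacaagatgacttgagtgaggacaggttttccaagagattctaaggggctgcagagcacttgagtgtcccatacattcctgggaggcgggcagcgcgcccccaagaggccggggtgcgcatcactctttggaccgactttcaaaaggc
Txnrd1: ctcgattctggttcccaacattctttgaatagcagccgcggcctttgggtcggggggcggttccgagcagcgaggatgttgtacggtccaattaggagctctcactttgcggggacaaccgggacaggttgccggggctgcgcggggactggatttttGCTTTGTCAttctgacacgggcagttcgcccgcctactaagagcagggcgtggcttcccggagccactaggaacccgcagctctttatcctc
Srxn1: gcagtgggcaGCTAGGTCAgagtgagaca
The match shown lies 214 bases before the start in Pir, 92 bases before it in Txnrd1 and 28 bases after it in Srxn1. A second match in Pir, GCGGAGTCA, lies 19 bases after the start. In the Pir stretch the matching bases also hold the AP-1 letters TGANTCA. Searched on both strands, the ARE core was in 12.4% of all 32851 RefSeq windows of 300 bases (250 before and 50 after a start), and the AP-1 letters were in 7.81%. Of the 11489 tested genes with a window, 16.8% held the ARE core in at least 1. Among called genes with a window it was in 4 of the 9 lower in KO and 1 of the 3 higher. The 4 were Pir, Txnrd1, Srxn1 and the knocked-out Nfe2l2 itself, and other windows of Txnrd1 held none. The gene called higher was Tanc1, with the same letters GCTAGGTCA as Srxn1. The matches are a description of these letters and not evidence of binding. The window of Nqo1 held none, which says only that the letters are not in these 300 bases.

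Library totals were 27305707 to 36588168 counts in KO and 36262407 to 39156336 counts in WT. The lowest total belonged to KO BMX-001 replicate 1, a library that deviated in other ways too. Its score on the first principal component (48.1% of the variance) was 108.5, with the other 7 at -34.4 to 0.1. The nuclear RNA Malat1 stood at 11910 CPM (counts normalised for library size) in it, against 2837 to 4147 CPM in the other KO libraries and 2546 to 4598 CPM in WT. Mpo, the myeloperoxidase gene of granulocyte precursors, stood at 276.5 CPM in it, against 1442 to 2048 CPM in the other KO libraries and 1325 to 2175 CPM in WT. Called genes, counts of calls and list medians are therefore given with this library (8 libraries) and without it (7 libraries, 3 KO and 4 WT). Genes of the expected marrow lineages were present in all 8, from the globin gene Hbb-bs (36870 to 43510 CPM in KO, 26850 to 43160 CPM in WT) to the B lineage gene Cd79a (104.7 to 151.9 CPM in KO, 169.6 to 201.6 CPM in WT). Y-linked transcripts were present in all 8 libraries, and Xist was at most 0.273 CPM.

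**Figure D1:**
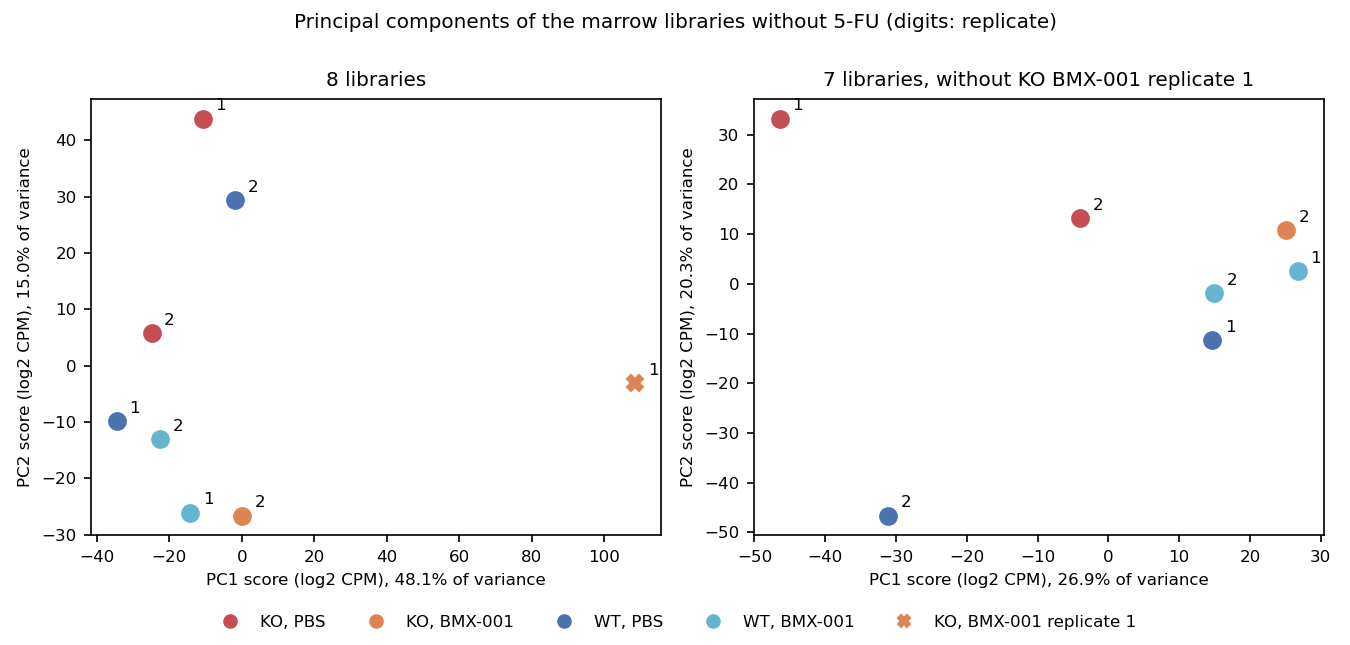
Principal component scores of the libraries from log2 CPM, for all 8 (left) and for the 7 without KO BMX-001 replicate 1 (right). Points are libraries coloured by genotype and treatment, with the replicate number beside each. The left panel shows replicate 1 of KO BMX-001 at 108.5 on the first component with all others at or below 0.1. In the right panel the KO libraries lie above 10 on the second component (10.8 to 33.2) and the WT libraries at or below 2.6.

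Nfe2l2 (ENSMUSG00000015839.7) was checked first, as the target of the knockout. It stood at 6.43 and 6.91 CPM in KO PBS and at 16.25 and 8.25 CPM in KO BMX-001, against 116.7 and 97.8 CPM in WT PBS and 111.5 and 111.9 CPM in WT BMX-001. Every KO library lay far below every WT library, and the highest KO value was that of the deviating library. The log2 fold change (KO over WT) was -3.91 ± 0.09 (SE; adjusted p = 1.27e-09) in 7 libraries and -3.59 ± 0.26 (adjusted p = 0.00834) in 8. The counts are sums over the whole gene and do not show which part of the transcript remains.

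A gene was called at an adjusted p under 0.05, from edgeR's quasi-likelihood test with treatment as a block and Benjamini-Hochberg adjustment over all genes tested. In 7 libraries 12 of 18767 genes (0.0639%) were lower and 6 (0.032%) were higher in KO than in WT. In 8 libraries 1 of 18304 genes (0.00546%) was called, and that gene was Nfe2l2. At an unadjusted p under 0.05 the counts were 1720 in 7 libraries and 1250 in 8. A looser measure is a gene whose KO libraries all lie on one side of all WT libraries, here called separation. In 7 libraries 783 genes (4.17%) had every KO library below every WT library and 723 (3.85%) had every KO library above. In 8 libraries the same held for 517 genes (2.82%) below and 379 (2.07%) above. The median log2 fold change of all genes was -0.0032 in 7 libraries and 0.0067 in 8, and 50.7% and 49.0% of genes had a negative value. Leaving out 1 more of the 7 gave 3 to 38 calls, the fewest without KO BMX-001 replicate 2 and the most without KO PBS replicate 1. Nfe2l2 and Ly75 were called each time and Pir in 6 of 7, while each other call was lost without at least 1 library. Values in what follows are from 7 libraries unless 8 are named. The gene lists were drawn up with earlier results of these data known. Their counts beside the shares of all genes are therefore a description and not a test.

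Among the quinone and electrophile enzymes that NRF2 is known to induce, Pir and Nqo1 were lower in KO. Pir encodes pirin, an iron-binding nuclear protein with quercetinase activity. It stood at 3.40 and 3.96 CPM in KO PBS and 3.002 and 3.57 CPM in KO BMX-001, against 8.05 and 9.64 CPM in WT PBS and 9.16 and 8.87 CPM in WT BMX-001. Both treatments gave the same picture, with no overlap between genotypes and the deviating library close to the other KO libraries. Pir fell by 1.29 ± 0.13 log2 units (adjusted p = 0.00269), and in 8 libraries its log2 fold change was -1.36 ± 0.14 (adjusted p = 0.0618). Nqo1 encodes NAD(P)H quinone oxidoreductase, which reduces quinones without a semiquinone step. It stood at 12.5 and 13.4 CPM in KO PBS and 10.5 and 11.9 CPM in KO BMX-001, against 17.8 and 19.9 CPM in WT PBS and 18.4 and 18.98 CPM in WT BMX-001. The lowest WT value lay above the highest KO value, and Nqo1 fell by 0.59 ± 0.08 log2 units (adjusted p = 0.0328; 0.432 in 8 libraries). Of the 27 tested members of this list 2 fell and none rose, where 0.0639% of all genes fell. Separation below held for 7, beside 4.17% of all genes, and above for 0. The log2 fold change was negative for 23. The summed level of the list overlapped, at 989.6 to 1114 CPM in 3 KO libraries and 779.1 CPM in the deviating one, against 1108 to 1175 CPM in WT. The median log2 fold change was -0.163, and -0.252 in 8 libraries. The other separated members, chosen after their values were seen, were Hmox1 (heme oxygenase), Gsta4 (a glutathione transferase for 4-hydroxynonenal), Cbr1 (carbonyl reductase), Ptgr1 (an alkenal reductase) and Esd (esterase D). Their log2 fold changes ran between -0.56 for Gsta4 and -0.16 for Esd. None of these was called, and all 7 stayed separated in 8 libraries. Of the 5 list members outside the test, 2 had no count in any library and 3 were under the filter on low counts.

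The thioredoxin system reduces protein disulfides and recharges peroxiredoxins. Srxn1 encodes sulfiredoxin, which repairs overoxidised peroxiredoxins, and stood at 5.76 and 7.26 CPM in KO PBS and 4.89 and 7.86 CPM in KO BMX-001. In WT it stood at 16 and 11.4 CPM with PBS and at 17.7 and 15.7 CPM with BMX-001. The KO values were all below the lowest WT value, and Srxn1 fell by 1.08 ± 0.13 log2 units (adjusted p = 0.0146; 0.432 in 8 libraries). Txnrd1, the cytosolic thioredoxin reductase, stood at 71.2 and 68.2 CPM in KO PBS and 50.8 and 60.1 CPM in KO BMX-001, against 89.4 and 95.6 CPM in WT PBS and 83.0 and 84.1 CPM in WT BMX-001. Again no KO library reached a WT library. Txnrd1 fell by 0.44 ± 0.06 log2 units (adjusted p = 0.0181; 0.461 in 8 libraries). These were the 2 called genes among 17 tested (0.0639% of all genes were called lower), with 4 separated below (4.17% of all genes) and 0 above and a list median of -0.043 (-0.09 in 8 libraries). Prdx1, a peroxiredoxin picked after its values were seen, was separated with 104.8 to 112.7 CPM in KO (87.0 CPM in the deviating library), against 124.5 to 136.0 CPM in WT. Its log2 fold change was -0.29 ± 0.06 (adjusted p = 0.137).

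In the glutathione, NADPH, iron and other antioxidant lists no member was called. In the glutathione list 1 of 19 members was separated below (4.17% of all genes), with a median of -0.012 (-0.046 in 8 libraries). That member was Gclc, the catalytic subunit of glutamate-cysteine ligase, named after its values were seen. Gclc stood at 111.8 to 121.3 CPM in the 3 KO libraries and 113.6 CPM in the deviating one, against 138.1 to 156.3 CPM in WT (log2 fold change -0.31 ± 0.06, adjusted p = 0.125). Its modifier subunit Gclm overlapped between genotypes (246.0 to 334.2 CPM in KO, 268.1 to 341.2 CPM in WT), and its log2 fold change was 0.06 ± 0.08. The 2 members of highest level, Gpx1 (glutathione peroxidase) and Gsr (glutathione reductase), had log2 fold changes of -0.03 ± 0.14 and 0.11 ± 0.07. Among 16 NADPH genes the median was -0.012 (-0.194 in 8 libraries) and the pentose phosphate genes Tkt and Taldo1 had log2 fold changes of 0.01 ± 0.06 and -0.05 ± 0.07. Separated below were 2 of the 16 (4.17% of all genes), the malic enzyme genes Me1 and Me3, both rare and named after their values were seen. Me1 stood at 0.174 to 0.251 CPM in all 4 KO libraries and 0.364 to 0.607 CPM in WT. Me3 stood at 0.0557 to 0.1735 CPM in 3 KO libraries, against 0.182 to 0.465 CPM in WT. The deviating library, at 0.881 CPM, exceeded every WT value of Me3, so 1 gene stayed separated in 8 libraries.

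Cat encodes catalase, which breaks down hydrogen peroxide and is abundant in red cells. It stood at 289.1 and 302.4 CPM in KO PBS and 275.6 and 291.9 CPM in KO BMX-001, against 368.4 and 470.1 CPM in WT PBS and 487.4 and 529.9 CPM in WT BMX-001. The 4 KO libraries were close together and all lay below WT. Its log2 fold change of -0.62 ± 0.10 missed the threshold (adjusted p = 0.0612). Cat was the one separated gene of 17 in the list of other antioxidant enzymes (4.17% of all genes were separated below). The median of that list was -0.121 (-0.247 in 8 libraries). Ucp2, the other member named by its level, had a log2 fold change of 0.10 ± 0.08. For iron, 3 of 20 members were separated below (4.17% of all genes) and 2 above (3.85%). The median of the iron list was -0.007 (-0.155 in 8 libraries). The ferritin light chain gene Ftl1, picked after its values were seen, stood at 771.8 to 853.5 CPM in KO (683.7 CPM in the deviating library), against 1002 to 1026 CPM in WT (log2 fold change -0.33 ± 0.07, adjusted p = 0.122). Fech, the last enzyme of heme synthesis, and Tfrc, the transferrin receptor, had log2 fold changes of 0.20 ± 0.09 and 0.00 ± 0.10.

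**Figure D2:**
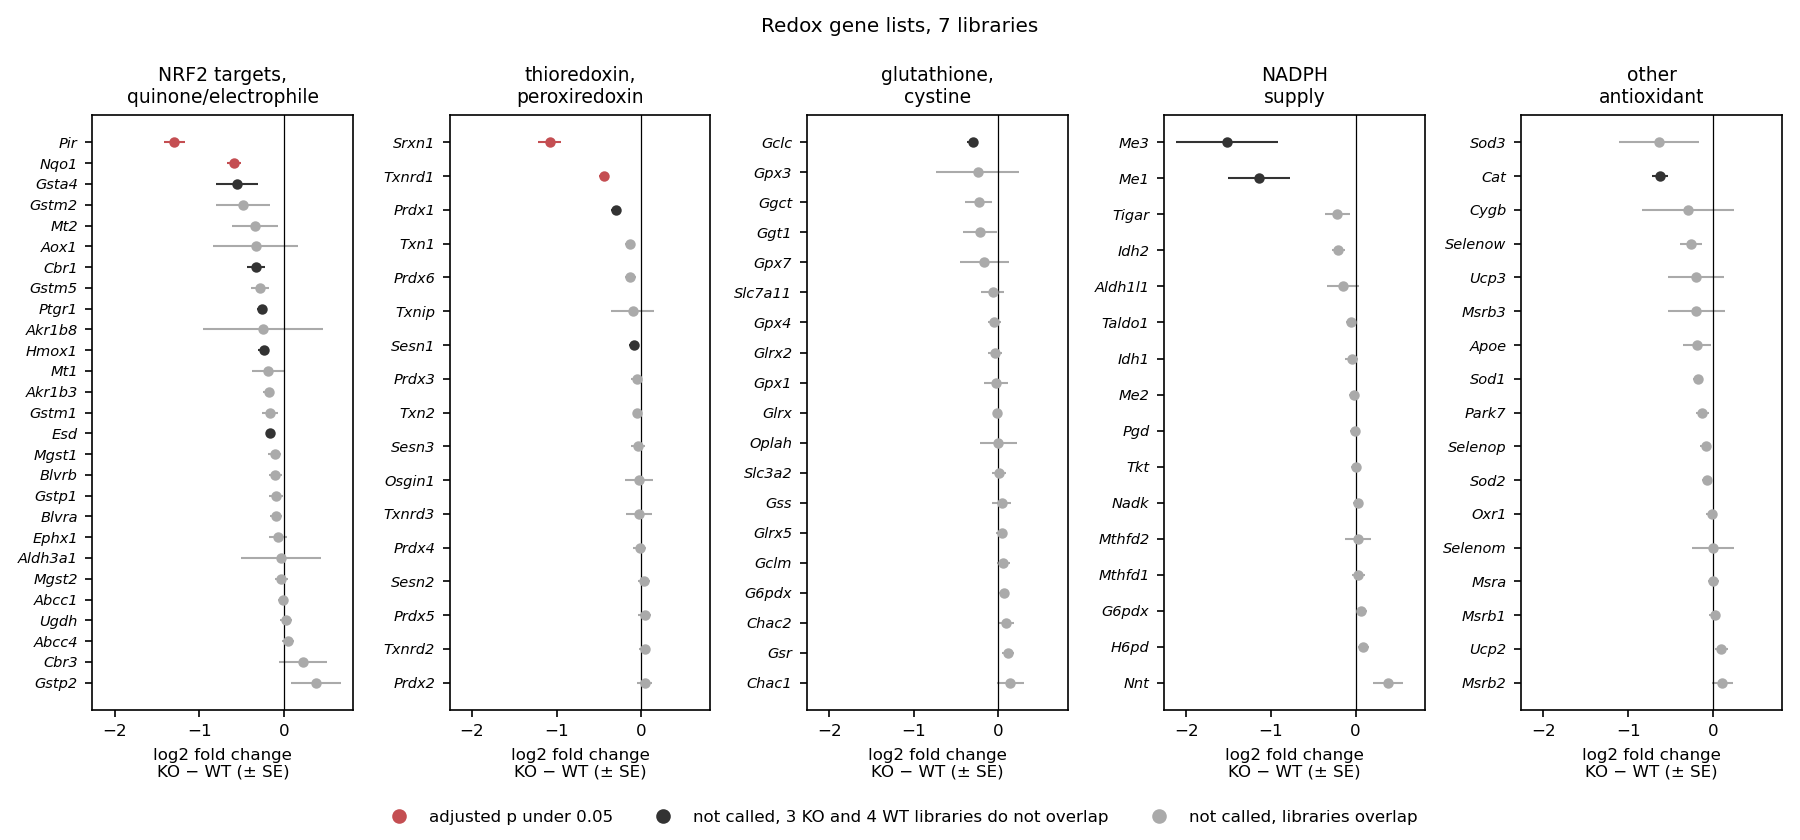
Log2 fold changes, KO over WT, of the tested members of 5 redox gene lists in 7 libraries, with bars of 1 SE. Red points passed an adjusted p of 0.05, black points did not but their 3 KO and 4 WT libraries do not overlap, and grey points overlap. The red points are Pir, Nqo1, Srxn1 and Txnrd1 and no point of the other 3 lists is red.

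Among the partners of NRF2, the repressor gene Keap1 stood at 47.6 to 50.8 CPM in the 3 KO libraries and 45.5 to 54.7 CPM in WT, which overlap. It was lower in the deviating library, at 30.2 CPM. Bach1 stood at 117.3 to 128.5 CPM in the 3 KO libraries, above 107.7 to 110.7 CPM in WT, with a log2 fold change of 0.16 ± 0.06 (adjusted p = 0.429). The deviating library, at 98.3 CPM, lay below WT for Bach1. The related factor gene Nfe2l1 had a log2 fold change of -0.01 ± 0.06. Of the 15 genes in this list Nfe2l2 alone was called, and 3 were separated above (3.85% of all genes). The list median was -0.033, and 0.001 in 8 libraries. Keap1, Bach1 and Nfe2l1 were picked after their values were seen.

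Of 32 proteasome subunit genes, some of them described as NRF2-responsive, none was called. All 32 had a negative log2 fold change, beside 50.7% of all genes, with a median of -0.111. Separation below held for 7 (4.17% of all genes) and above for 0. In 8 libraries separation below held for 6 (2.82% of all genes) and the median was -0.196. The subunit genes of highest level, Psmd2 and Psmc3, had log2 fold changes of -0.04 ± 0.06 and -0.14 ± 0.06. Of the large ribosomal subunit genes none was called and 41 of 42 were negative, with a median of -0.103 (-0.184 in 8 libraries). Separated below were 2, near the 4.17% of all genes, and 4 in 8 libraries (2.82% of all genes). Endoplasmic reticulum chaperone genes had a median of -0.19 (-0.329 in 8 libraries), with 22 of 26 negative and none called. Of these genes 4 were separated below (4.17% of all genes), and 3 in 8 libraries (2.82%). The summed level of that list was 4289 to 4770 CPM in the 3 KO libraries and 2583 CPM in the deviating one, against 4654 to 5673 CPM in WT.

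Hspa8 encodes the constitutive chaperone HSC70 and stood at 1009 and 961.7 CPM in KO PBS and 456.1 and 808.4 CPM in KO BMX-001. Its WT levels were 1513 and 1304 CPM with PBS and 1107 and 1078 CPM with BMX-001. Within each treatment the KO libraries lay below the WT libraries, and the deviating library was lowest. Hspa8 fell by 0.48 ± 0.07 log2 units (adjusted p = 0.0488; -0.65 ± 0.18 and 0.671 in 8 libraries), a value that is uncertain because this gene has near-identical copies in the genome. Hspa2, a chaperone best known in spermatogenesis, fell by 0.68 ± 0.10 (adjusted p = 0.0328; -0.77 ± 0.13 and 0.432 in 8 libraries), at 8.11 to 9.77 CPM in 3 KO libraries and 5.94 CPM in the deviating one, against 12.1 to 15.1 CPM in WT. Hspa5, the endoplasmic reticulum chaperone BiP, was picked after its values were seen and its log2 fold change was -0.39 ± 0.07 (adjusted p = 0.0857).

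Genes of pro-B and pre-B cells formed the cell type list with the lowest median in 7 libraries. In 8 the stroma and megakaryocyte lists were lower, at -0.517 and -0.398. Vpreb3, a component linked to the surrogate light chain, stood at 45.6 and 34.5 CPM in KO PBS and 27.5 and 42.4 CPM in KO BMX-001, against 64.9 and 56.9 CPM in WT PBS and 68.3 and 67.5 CPM in WT BMX-001. No KO library reached the WT range, and Vpreb3 fell by 0.63 ± 0.09 log2 units (adjusted p = 0.0489; 0.671 in 8 libraries). Myl4, a myosin light chain gene, stood at 15.4 and 12.98 CPM in KO PBS and 12.7 and 14.9 CPM in KO BMX-001, against 20.9 and 20.8 CPM in WT PBS and 21.1 and 23.0 CPM in WT BMX-001. The WT values were tightly grouped above all KO values, and Myl4 fell by 0.56 ± 0.09 (adjusted p = 0.0484; -0.62 ± 0.10 and 0.432 in 8 libraries). Of 24 members 2 fell (0.0639% of all genes) and none rose, and all 24 had a negative log2 fold change. Separation below held for 14 (4.17% of all genes) and above for none. As the list was drawn up with earlier results known, these shares describe it and test nothing. The median was -0.451, and in 8 libraries it was -0.397 with 11 separated below (2.82% of all genes). In a bulk sample fewer B precursors and less of their RNA per cell cannot be told apart. Haemoglobin transcripts held 5.99% to 8.02% of counts in KO and 4.86% to 6.96% in WT, and their part in these values was not tested.

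The rest of that list included the recombinase and the transcription factors that define the lineage, chosen here after their values were seen. Rag1, a subunit of the V(D)J recombinase, stood at 85.9 and 63.98 CPM in KO PBS and 72.01 and 93.4 CPM in KO BMX-001, against 111.4 and 101.4 CPM in WT PBS and 147.7 and 135.4 CPM in WT BMX-001. The KO values were all lower, with a log2 fold change of -0.54 ± 0.10 (adjusted p = 0.122). Ebf1, an early B cell factor, was separated in 7 libraries with a log2 fold change of -0.50 ± 0.10 (adjusted p = 0.142). The deviating library, at 159.5 CPM, exceeded every WT value of Ebf1 (129.6 to 151.7 CPM). Pax5, which commits cells to the B lineage, stood at 122.4 to 182.3 CPM in all 4 KO libraries and 194.3 to 266.5 CPM in WT (log2 fold change -0.49 ± 0.14, adjusted p = 0.372). Dntt, which adds bases at V(D)J junctions, and Rag2 had log2 fold changes of -0.47 ± 0.11 and -0.57 ± 0.15 and were separated in all 8 libraries. Il7r, the receptor of the main pre-B growth factor, overlapped, with a log2 fold change of -0.25 ± 0.12. The summed level of the 24 genes was 1609 to 2096 CPM in 3 KO libraries and 1826 CPM in the deviating one, against 2384 to 2700 CPM in WT. Its lowest value was KO PBS replicate 2, at 1609 CPM.

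**Figure D3:**
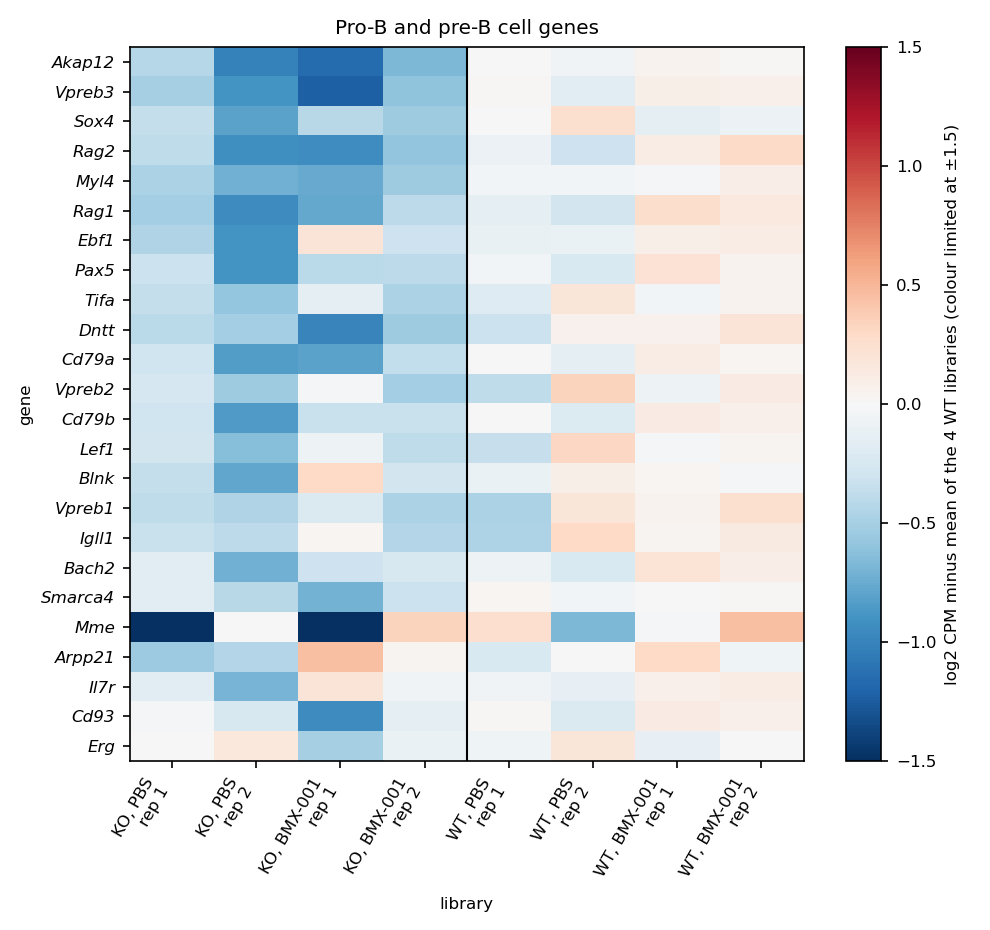
Levels of the 24 pro-B and pre-B cell genes in each library, as log2 CPM minus the mean of the 4 WT libraries, with blue for lower and red for higher and KO columns left of WT columns. The KO PBS columns are blue for most genes. The deviating library is red for some, such as Ebf1, and blue for others, such as Vpreb3.

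Of 23 mature B cell genes none was called. The log2 fold change was negative for 20, 8 were separated below (4.17% of all genes) and 0 above, and the median was -0.201. In 8 libraries 4 were separated below (2.82% of all genes), with a median of -0.152. Ighm, the constant region of IgM, was the member of highest level together with Cd74. Ighm stood at 1104 and 1093 CPM in KO PBS and 747.9 and 1027 CPM in KO BMX-001, against 3935 and 1459 CPM in WT PBS and 1380 and 2143 CPM in WT BMX-001. The genotypes did not overlap, but the WT libraries varied widely and the log2 fold change was -1.09 ± 0.43 (adjusted p = 0.558). Cd74, the invariant chain of MHC class II, had a log2 fold change of -0.09 ± 0.09. Ptprcap, a protein that binds CD45 in lymphocytes, was called outside the lists. It stood at 31.7 and 27.8 CPM in KO PBS and 29.9 and 31.0 CPM in KO BMX-001, against 45.6 and 41.3 CPM in WT PBS and 42.7 and 42.7 CPM in WT BMX-001. Its 4 KO libraries, the deviating one included, were within 4 CPM of each other, and it fell by 0.51 ± 0.07 log2 units (adjusted p = 0.0261; 0.432 in 8 libraries). T and NK cell genes had a median of -0.026 (0.1 in 8 libraries) and none was called. Separated below were 2 of 26 (4.17% of all genes), and 0 in 8 libraries.

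Immunoglobulin genes went both ways. Of 214 tested, 1 was called higher and 0 lower, with 20 separated above (3.85% of all genes), 8 below (4.17%) and a median of 0.232. The called segment was Ighv1-55, a heavy chain variable gene. It stood at 13.1 and 14.9 CPM in KO PBS and 2.28 and 11.2 CPM in KO BMX-001, against 6.27 and 4.16 CPM in WT PBS and 3.83 and 3.96 CPM in WT BMX-001. The 3 KO libraries were above WT, and the deviating library was below all of WT. Ighv1-55 rose by 1.46 ± 0.14 log2 units in 7 libraries (adjusted p = 0.00269), and its log2 fold change in 8 was 1.11 ± 0.42 (adjusted p = 0.671). Variable segments are near-identical to each other, so its counts may hold reads of neighbours. Igha, the constant region of IgA, was picked after its values were seen. It stood at 1447 and 2106 CPM in KO PBS and 202.9 and 701.8 CPM in KO BMX-001, against 69.6 and 102.4 CPM in WT PBS and 151.7 and 103.4 CPM in WT BMX-001. All 4 KO libraries exceeded WT and spread widely among themselves, and its log2 fold change of 3.67 ± 0.57 was not called (adjusted p = 0.277). The plasma cell list of 26 genes, Igha included, had a median of -0.005 (-0.029 in 8 libraries). Its members separated above were 3 (3.85% of all genes) and those below were 6 (4.17%). With 8 libraries 1 was separated above (2.07% of all genes) and 3 below (2.82%). Xbp1, a plasma cell transcription factor, had a log2 fold change of -0.01 ± 0.13.

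In the myeloid and erythroid lists Cd5l and Ly75 were the called members, and Ly75 is described further on. Cd5l, secreted by tissue macrophages, stood at 24.7 and 25.7 CPM in KO PBS and 9.46 and 24.2 CPM in KO BMX-001, against 33.4 and 35.7 CPM in WT PBS and 43.1 and 46.1 CPM in WT BMX-001. The KO libraries were all lower, the deviating one most of all, and Cd5l fell by 0.62 ± 0.09 log2 units (adjusted p = 0.0382; 0.671 in 8 libraries). The macrophage list had a median of -0.102 (-0.266 in 8 libraries). Of its 23 members 16 had a negative log2 fold change and 7 a positive one. Separated below were 2 (4.17% of all genes) and above 1 (3.85%). Cd163, a scavenger receptor for haemoglobin, stood at 0.52 ± 0.11 on the log2 scale (adjusted p = 0.208). Marco, a macrophage scavenger receptor, was near the limit of detection, with 2 and 18 counts in KO PBS and 0 and 0 in KO BMX-001, against 17 and 23 in WT PBS and 29 and 42 in WT BMX-001. At these totals 3 counts, the limit a count of 0 allows, correspond to 0.0979 CPM in KO BMX-001 replicate 1 and 0.0836 CPM in replicate 2, for counting error only. Cd163 and Marco were picked after their values were seen.

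Monocyte genes had a median of 0.118 (0.002 in 8 libraries), with 18 of 24 positive and 5 separated above (3.85% of all genes). None was called and none stayed separated in 8 libraries. Fn1 (fibronectin) stood at 900.5 to 1300 CPM in the 3 KO libraries and 210.3 CPM in the deviating one, against 736.1 to 892.0 CPM in WT. Csf1r, the macrophage colony-stimulating factor receptor, was named after its values were seen. Its log2 fold change was 0.31 ± 0.09 (adjusted p = 0.345), and 0.03 ± 0.27 in 8 libraries. Csf1r overlapped between genotypes, at 189.7 to 261.5 CPM in 3 KO libraries and 83.0 CPM in the deviating one, against 166.7 to 190.2 CPM in WT. All 20 genes of secondary granules in maturing neutrophils had a positive value, where 50.7% of all genes had a negative one. Their median was 0.178 (0.076 in 8 libraries) and none was called. Separated above were 2 (3.85% of all genes), and 1 in 8 libraries (2.07%). Ngp and S100a9 had log2 fold changes of 0.22 ± 0.09 and 0.05 ± 0.11. The summed level of the secondary granule genes overlapped, at 37730 to 47700 CPM in 3 KO libraries (34240 CPM in the deviating one) and 36580 to 44200 CPM in WT. Erythroid genes had a median of 0.088 (0.048 in 8 libraries) with 30 of 35 positive and none called. Of these genes 5 were separated above, beside 3.85% of all genes. The globin genes Hbb-bs and Hba-a1 had log2 fold changes of 0.20 ± 0.13 and 0.22 ± 0.10, and the mitochondrial iron importer gene Slc25a37, picked after its values were seen, 0.30 ± 0.10. Primary granule genes had a median of -0.105 (-0.264 in 8 libraries) and Mpo a log2 fold change of 0.00 ± 0.14. Mature neutrophil genes had a median of 0.035 (0.259 in 8 libraries), and Retnlg and Mxd1 had log2 fold changes of 0.16 ± 0.13 and 0.07 ± 0.07.

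Stem and progenitor genes had a median of -0.017 (-0.144 in 8 libraries). Of the 28 tested, 3 were separated below (4.17% of all genes) and 2 above (3.85%). Ikzf1 and Tal1, lineage regulators named for their level, had log2 fold changes of -0.13 ± 0.07 and 0.13 ± 0.06. Flt3, a receptor of early progenitors, was higher in the 3 KO libraries (23.8 to 32.3 CPM) than in WT (19.2 to 23.3 CPM). It was lower in the deviating library, at 17.6 CPM, and its log2 fold change was 0.39 ± 0.11 (adjusted p = 0.312). Myb, which maintains progenitors, was separated below in all 8 libraries, with a log2 fold change of -0.28 ± 0.06 (adjusted p = 0.142). Flt3 and Myb were picked after their values were seen. Stromal and vessel genes had a median of -0.292 (-0.517 in 8 libraries), with Cxcl12 and Igfbp5 at -0.42 ± 0.55 and -0.29 ± 0.58 on the log2 scale. The summed level of that list was 499.4 to 1084 CPM in the 3 KO libraries, lowest in PBS replicate 1, and 485.5 CPM in the deviating one, against 842.2 to 1211 CPM in WT. Of 37 cell cycle genes 0 were called or separated, with a median of -0.03 (-0.167 in 8 libraries), and Mki67 and Top2a had log2 fold changes of 0.03 ± 0.10 and -0.02 ± 0.07. Basophil, mast cell and eosinophil genes had a median of 0.067 (0.053 in 8 libraries), with Prg2 and Epx at -0.01 ± 0.29 and 0.12 ± 0.27. Megakaryocyte genes had a median of -0.062 (-0.398 in 8 libraries), with Thbs1 and Plek at 0.01 ± 0.18 and 0.13 ± 0.11.

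**Figure D4:**
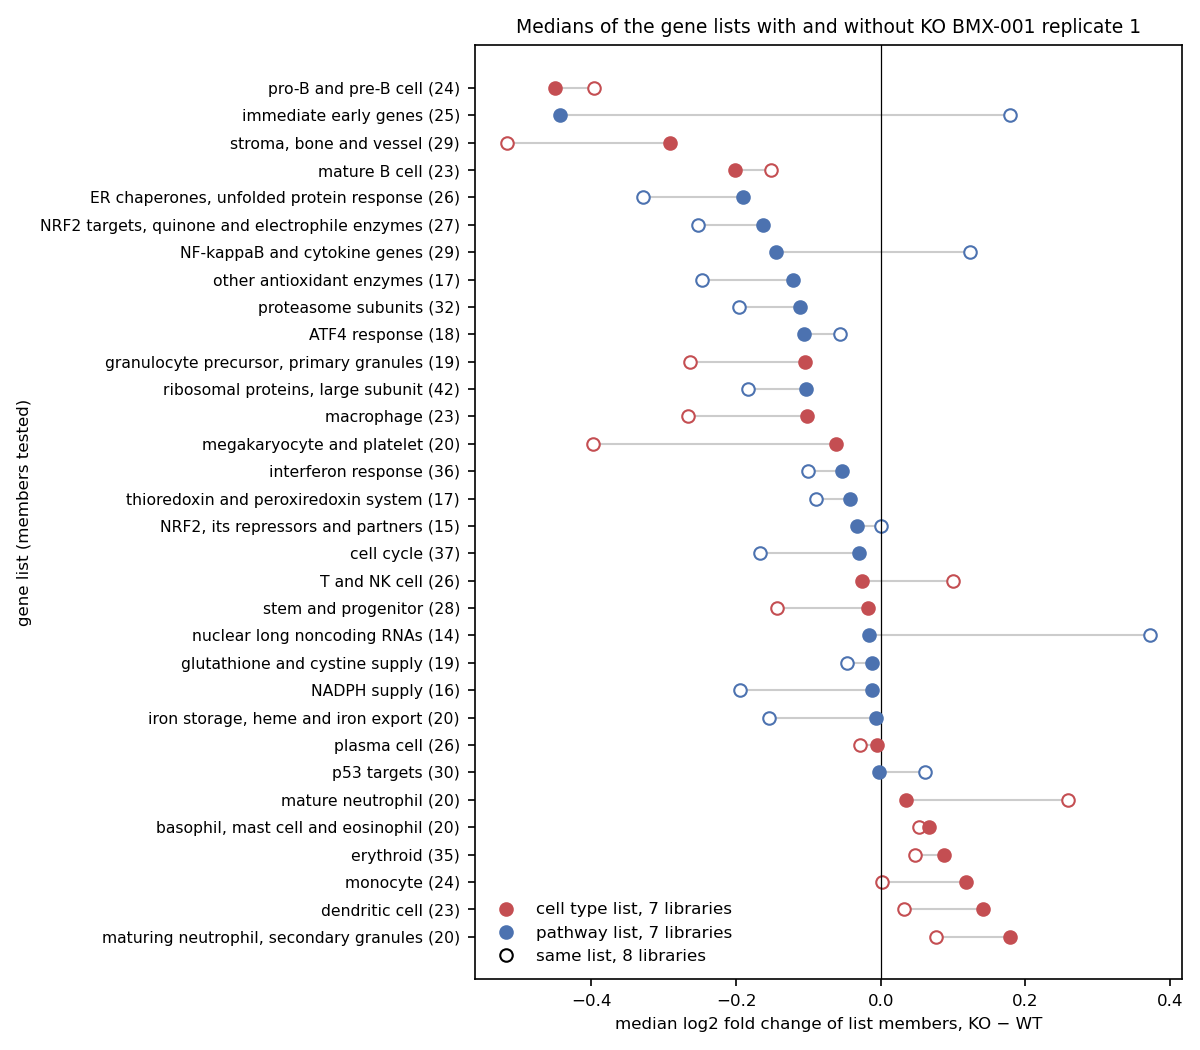
Median log2 fold change (KO over WT) of the tested members of each gene list, with the number tested in brackets. Filled points are from 7 libraries, open points from 8, red for cell type lists and blue for pathway lists. The filled point of the pro-B and pre-B list is lowest at -0.451 (open point -0.397). The lowest open point is that of stroma, bone and vessel at -0.517. The immediate early list moves most with the library left out, between -0.444 in 7 libraries and 0.178 in 8.

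Some of the stress lists moved with single libraries. Immediate early genes had a median of -0.444 in 7 libraries and 0.178 in 8, and their summed level was 1221 to 1515 CPM in 3 KO libraries and 3148 CPM in the deviating one. In WT it was 2951 CPM in PBS replicate 2 and 1114 to 1281 CPM in the other 3. The list therefore gives no stable direction, and Zfp36, which destabilises cytokine mRNAs, had a log2 fold change of -0.34 ± 0.41. NF-kappaB and cytokine genes moved the same way, with medians of -0.145 in 7 libraries and 0.124 in 8, and Nfkb1 and Birc3 at -0.07 ± 0.07 and 0.00 ± 0.07. Nuclear long noncoding RNAs had a median of -0.016 in 7 libraries and 0.372 in 8. Interferon genes had a median of -0.054 (-0.1 in 8 libraries), with Rsad2 and Sp100 at 0.16 ± 0.20 and -0.03 ± 0.07. Genes of p53 and of ATF4 had medians of -0.002 and -0.106 (0.061 and -0.057 in 8 libraries), with Btg2 and Trp53inp1 at -0.15 ± 0.11 and 0.02 ± 0.09, and Ppp1r15a and Atf4 at -0.18 ± 0.17 and -0.19 ± 0.19.

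Both remaining called genes of the named set were higher in KO and lie on the chromosome of Nfe2l2. Ly75 encodes the endocytic receptor DEC-205 of dendritic cells. It stood at 131.1 and 127.3 CPM in KO PBS and 58.3 and 105.6 CPM in KO BMX-001, against 79.5 and 73.7 CPM in WT PBS and 75.1 and 69.2 CPM in WT BMX-001. The 3 KO libraries were above WT and the deviating library below it. Ly75 rose by 0.67 ± 0.07 log2 units in 7 libraries (adjusted p = 0.00269), and its log2 fold change in 8 was 0.47 ± 0.19 (adjusted p = 0.671). It was the single called gene of 23 in the dendritic cell list, whose median was 0.141 (0.032 in 8 libraries). In that list 2 genes were separated above (3.85% of all genes) and 1 below (4.17%). Tanc1, a scaffold protein of synapses, stood at 27.5 and 34.1 CPM in KO PBS and 15.6 and 29.8 CPM in KO BMX-001, against 18.2 and 15.1 CPM in WT PBS and 16.6 and 17.1 CPM in WT BMX-001. The deviating library lay inside the WT range and the other 3 above it. Tanc1 rose by 0.86 ± 0.10 log2 units in 7 libraries (adjusted p = 0.00649), and its log2 fold change in 8 was 0.66 ± 0.21 (adjusted p = 0.671).

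In the order of tested genes along chromosome 2, Ly75 lies 73 and Tanc1 81 genes from Nfe2l2. Among the 400 tested genes nearest to Nfe2l2, 200 on each side, 3 were called. Across all 18767 tested genes 0.032% were called higher and 0.0639% lower. The 3 were Ly75, Tanc1 and the pseudogene Mrpl23-ps1, which lies 5 genes away. The other 14 called genes besides Nfe2l2 lay elsewhere, with Srxn1 478 genes away on the same chromosome. Rag1, Rag2 and Hspa5, named above, also lie within the 200, at 116, 115 and 173 genes. Cat, Psmc3, Prg2 and Thbs1, named in this report as well, are on chromosome 2 too, and their distances were not counted. Whether position next to the altered gene bears on their values was not tested.

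Called genes outside the naming conditions, named here after their values were seen, were 4. Prm1, a protamine gene of sperm cells, had 34, 39, 55 and 42 counts in the KO libraries against 1, 4, 6 and 6 in WT, and a log2 fold change of 3.35 ± 0.39 (adjusted p = 0.00997). The counts of Mrpl23-ps1 were 3, 3, 4 and 4 in KO against 26, 27, 35 and 24 in WT (log2 fold change -2.89 ± 0.39, adjusted p = 0.0261). A gene without a symbol in the annotation used, ENSMUSG00000120850.1, and the predicted gene Gm43864 were called higher in KO, by 1.51 ± 0.23 (adjusted p = 0.0457; 0.432 in 8 libraries) and 0.48 ± 0.08 (adjusted p = 0.0489; 0.455 in 8 libraries) on the log2 scale. The libraries of Gm43864 overlapped, at 17.2, 18.4, 33.4 and 27.6 CPM in KO against 12.5, 12.97, 19.3 and 20.3 CPM in WT. Prm1 and Mrpl23-ps1 were separated in all 8 libraries, and the adjusted p of each in 8 libraries was 0.0618.

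**Figure D5:**
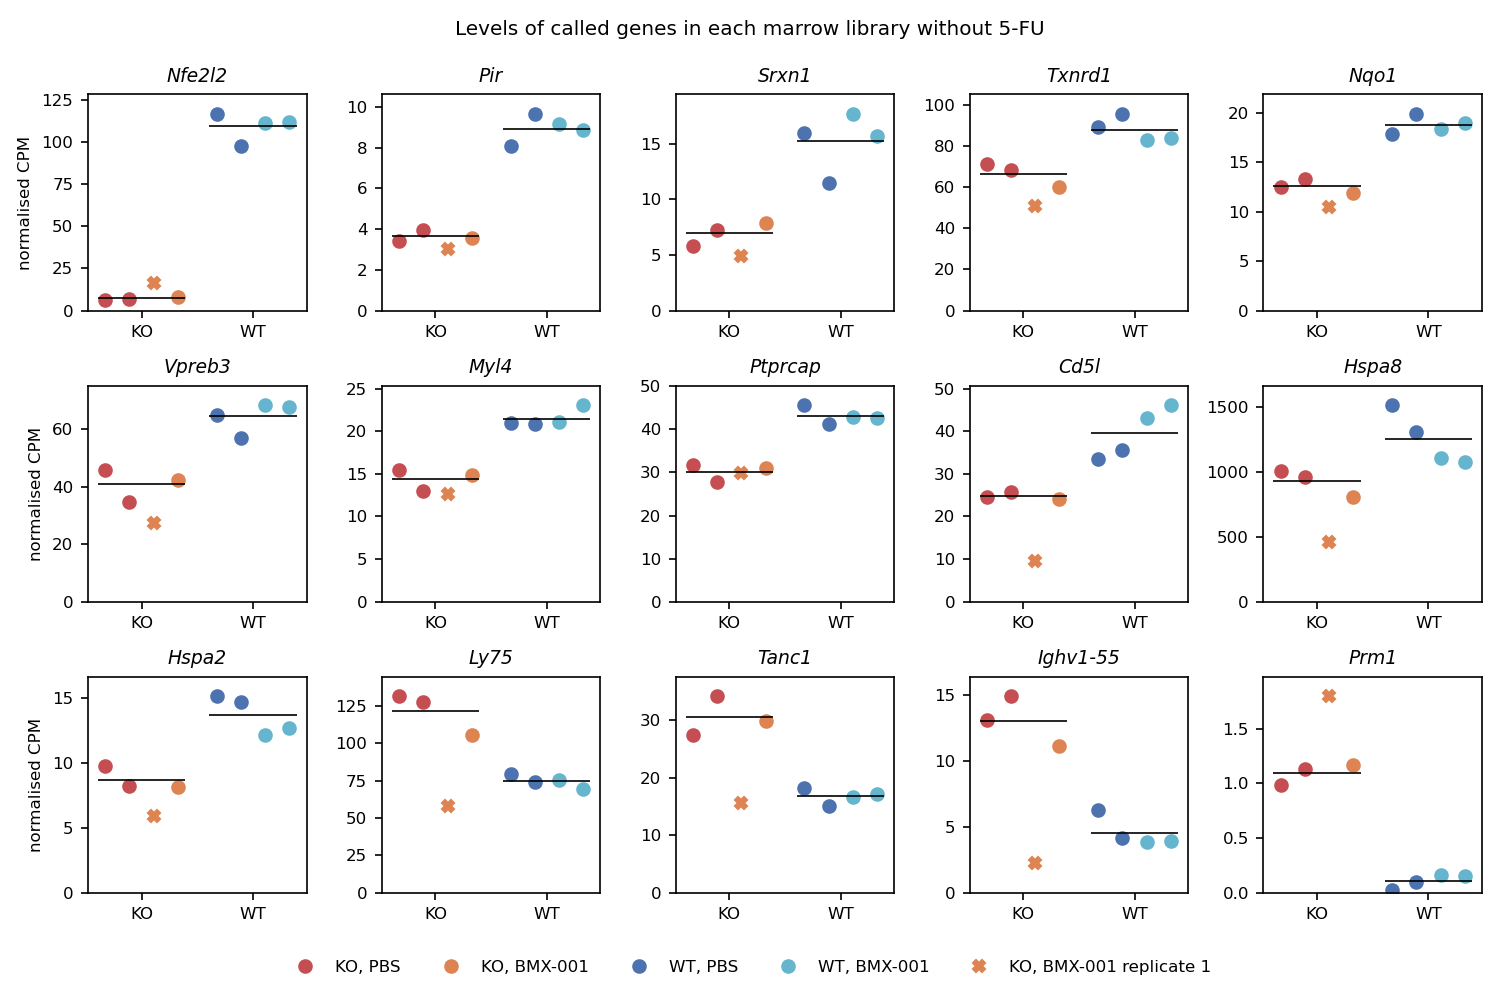
Normalised CPM of 15 called genes in each library, KO left and WT right in each panel. Points are libraries, crosses mark KO BMX-001 replicate 1, and lines are means of the other 3 KO libraries and of the 4 WT libraries. The cross joins the other KO points for Pir, Srxn1, Nqo1 and Ptprcap and lies within or below the WT points for Ly75, Tanc1 and Ighv1-55.

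The mitochondrial ribosomal RNAs, also picked after their values were seen, lay higher in KO without passing the threshold. The rRNA gene mt-Rnr2 stood at 397.2 and 349.1 CPM in KO PBS and 408.7 and 505.9 CPM in KO BMX-001, against 201.4 and 219.5 CPM in WT PBS and 212.2 and 302.6 CPM in WT BMX-001. All KO libraries were higher, the deviating one included. The log2 fold changes were 0.88 ± 0.12 for mt-Rnr2 and 0.81 ± 0.11 for mt-Rnr1, both with an adjusted p of 0.0612, so neither was called.

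Whether the genotype difference depended on BMX-001 was asked with an interaction term. No gene passed in 8 libraries (0 of 18304, smallest adjusted p = 0.72, 812 at an unadjusted p under 0.05) or in 7 (0 of 18767, smallest adjusted p = 0.14, 524 unadjusted). DESeq2 called 12 genes in 8 libraries. The genes of smallest p in 8 libraries were the immunoglobulin segments Ighv1-15, Iglv1 and Igkv5-48, all with an adjusted p of 0.72. Ighv1-15 stood at 24.0 and 46.4 CPM in KO PBS and 1.30 and 1.25 CPM in KO BMX-001, against 2.71 and 1.404 CPM in WT PBS and 2.57 and 1.80 CPM in WT BMX-001. KO PBS alone was high. Within each treatment of the 7 libraries, Pir had log2 fold changes of -1.34 ± 0.22 with BMX-001 and -1.26 ± 0.17 with PBS, and Srxn1 -1.09 ± 0.23 and -1.07 ± 0.19. Nqo1 had -0.66 ± 0.14 with BMX-001 and -0.54 ± 0.11 with PBS, Txnrd1 -0.48 ± 0.09 and -0.41 ± 0.07, and Cat -0.80 ± 0.15 and -0.50 ± 0.12. The values in BMX-001 rest on KO replicate 2 alone, which is assumed to vary like the other groups.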

How the data were processed

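Total RNA of mouse bone marrow was sequenced, and the table that the authors deposited holds raw counts for 57132 Ensembl IDs in 16 libraries, with 0 columns left unused. Per the submitters' processing notes the build was GRCm39 and the tools featureCounts, R 4.3.0, DESeq2 1.38.3, Salmon 1.4.0, Trim Galore 0.6.4 and FastQC 0.12.1. The sources used here do not give the strand setting, aligner or annotation release, so a gene and an antisense partner may share reads. Symbols came from an annotation of build GRCm38 by gene ID (51880 matched, and IDs without one held 2.69% of counts). Its gene positions gave the order of genes along chromosome 2, and IDs absent from it were not placed in that order.

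Counts were filtered with filterByExpr, scaled with TMM and fitted in R 4.3.3 with edgeR 4.0.16 (robust quasi-likelihood, treatment plus genotype, Benjamini-Hochberg adjusted p under 0.05), with and without KO BMX-001 replicate 1. DESeq2 1.42.0 and limma 3.58.1 served as alternatives, the package data.table (version 1.17.8) for reading. The script was tested on simulated data with 100 genes changed 1.5-fold and 100 changed 2-fold. In 7 libraries it recovered 53% and 82% of them, with 15 false calls. In 8 libraries it recovered 16% and 64%, with 7 false calls, so a gene not called may still differ. CPM are TMM-normalised over 8 libraries. Named genes were Nfe2l2, up to 10 called genes in each direction by log2 fold change (no overlap, mean log2 CPM 1 or more), leaving out predicted, immunoglobulin and pseudogene names, up to 3 called members of each of 33 lists or else its 2 of highest level, and the 3 interaction genes of smallest p. Of 806 list entries 799 were matched. Members and lists were chosen with earlier results of these data known. Counts of the 2 libraries of a group differed by more than sampling noise (chi-square per degree of freedom 11.8 to 130), so none is the same library deposited again, which does not show whether they came from separate mice.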

Additional observations from a re-analysis of the deposited data

Results flagged for a closer look

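A value is listed here when, among the 4 libraries of a genotype, the gap between the highest or lowest and its nearest neighbour took up more of the whole range than Dixon's 95% critical value for 4. Of 304 sets tested 35 passed, where chance gives about 1 in 20. KO BMX-001 replicate 1 accounted for 16, other KO libraries for 3 and WT libraries for 16.

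KO BMX-001 replicate 1 had 27305707 counts against 36011347 to 36588168 in the other KO libraries (gap 0.938 of the range). It was low for Cd5l (0.911), Calr (0.891), Canx (0.874), Tal1 (0.883), Hmox1 (0.897), Chordc1 (0.868) and Keap1 (0.846). It was high for Btg2 (0.933), Malat1 (0.856), Neat1 (0.920) and Dynlt1b (0.871). Its summed levels were high for NF-kappaB and cytokine genes (0.900), immediate early genes (0.847), nuclear long noncoding RNAs (0.862) and T and NK cell genes (0.870). Malat1 stood at 11910 CPM against 2837 to 4147 CPM in the other KO libraries. Neat1 stood at 1086 CPM against 135.7 to 211.6 CPM.

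In the other KO libraries Retnlg was low in KO BMX-001 replicate 2 (0.856). KO PBS replicate 2 was low for Pax5 (0.845) and high for Marco (0.888), at 0.520 CPM against 0.0 to 0.0582 CPM.

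In WT, PBS replicate 2 was high for Mxd1 (0.920), Gclc (0.863) and Fos (0.921) and low for Ly6d (0.846). Fos, an immediate early gene, stood at 287.5 CPM in it against 14.9 to 36.5 CPM. The same library had high summed levels of NF-kappaB and cytokine genes (0.950), immediate early genes (0.909), secondary granule genes (0.871) and mature neutrophil genes (0.903). WT PBS replicate 1 was high for Psmd2 (0.903), Calr (0.839), Ighv1-55 (0.865) and Xbp1 (0.900). WT BMX-001 replicate 1 was low for Rpl4 (0.839) and for the summed large ribosomal subunit genes (0.835). WT BMX-001 replicate 2 was high for Myl4 (0.881) and low for Ftl1 (0.833), at 1002 CPM against 1022 to 1026 CPM.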

How the results depend on the processing

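In 7 libraries (18 genes called) the count was 151 with no filter on low counts, 142 with DESeq2, 7 with a stricter filter and 37 with limma voom and quality weights. DESeq2 shared 16 of the 18 calls and limma all 18. Leaving out each of the 7 in turn gave 3 to 38 calls, with 38 when KO PBS replicate 1 was left out, 29 for WT PBS replicate 2, 10 for WT BMX-001 replicate 1, 8 for KO PBS replicate 2, 5 for WT BMX-001 replicate 2 and 3 for KO BMX-001 replicate 2. Nfe2l2 and Ly75 kept their call in all 7 and Pir in 6 (adjusted p = 0.128 without KO BMX-001 replicate 2). Ighv1-55 kept it in 6, Tanc1 in 5, Srxn1 and Prm1 in 4, Txnrd1, Ptprcap and Mrpl23-ps1 in 3, Nqo1, Hspa2, Hspa8, Myl4 and ENSMUSG00000120850.1 in 2, Vpreb3, Cd5l and Gm43864 in 1, with no change of sign in any.

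In 8 libraries (1 called) the count was 5 with no filter, 40 with DESeq2, 72 with limma and quality weights (weight 0.0927 for KO BMX-001 replicate 1), 11 with all 16 libraries in the fit and 3 with no treatment term. Leave-one-out gave 0 to 18 calls, with 0 without either KO PBS library. The interaction had 12 calls with DESeq2 and 0 to 5390 in leave-one-out, where 5390 arose with KO BMX-001 represented by replicate 1 only. The cause of these shifts was not tested. The median of immediate early genes was 0.123 without WT PBS replicate 2 in 7 libraries. With the replicate number as a block 15 genes were called in 7 libraries, 12 of them among the 18, and 1 in 8. The difference between replicates 1 and 2 of a group was correlated between groups. Values ran between -0.495 (KO BMX-001 with WT PBS) and 0.213 (KO PBS with KO BMX-001). They do not show whether libraries shared handling, which was not tested. Depth limits genes of few counts such as Prm1 and Marco.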
